A study of Rattus norvegicus and Bos taurus with 12 samples.

Results

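Matrix proteases and their inhibitors were taken from RNA sequencing of bovine right ventricular fibroblasts (Cfib) and of adult rat ventricular myocytes (ARVM). They were chosen by symbol and comprise the matrix metalloproteinases (Mmp), the TIMPs and Reck, the ADAM and ADAMTS proteins, the plasminogen activators and their serpins with Serpinf1, and the serine proteases of the Htra, Fap and Prss names. The rule found 41 of the 7052 genes listed for ARVM and 23 of the 2115 listed for Cfib, or 64 of 9167 entries, and 16 genes appeared in both experiments. The rule itself uses names and no measured value. Both lists had, however, been selected by the authors for a difference between the very groups compared here, so a gene that is not listed is not analysed here and nothing is said of its level.

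The extracellular matrix is cut by several enzyme families that are mostly made as inactive precursors. Metalloproteinases are zinc enzymes that cut collagens, elastin and other matrix proteins, and TIMPs block them by binding the active site, whereas Reck is a membrane-anchored inhibitor. ADAMTS enzymes cut proteoglycans or trim procollagen, ADAM proteins shed membrane proteins, and plasminogen activators generate plasmin, with serpins as their inhibitors. In the heart these enzymes and inhibitors are known for the turnover of interstitial collagen in scarring and remodelling.

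CO Cfib came from the right ventricle of control calves kept at Denver altitude, and PH Cfib from that of calves with pulmonary hypertension after hypobaric hypoxia. According to the paper the calves were neonatal, and the cells were grown at low passage and kept in serum-free medium before harvest. The myocytes were isolated from healthy adult Sprague Dawley rats. Fresh ARVM (libraries con4, con5 and con6) were RNA from myocytes directly after isolation, and PH-CM ARVM (libraries ha2, ha209 and ha211) had been cultured for 7 days in medium conditioned by PH Cfib. Time in culture and conditioned medium therefore cannot be told apart in ARVM. The treatment labels speak instead of serum from cows at low or high altitude, and the paper's group names are used here. There were 3 libraries per group. The Cfib libraries stand for separate calves, as the paper describes, whereas nothing in the labels or the paper says that each ARVM library is a separate rat, so the ARVM p-values measure the spread between libraries, which may be technical.

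The ARVM values are normalized counts, that is, reads divided by 1 size factor per library, and the reads could be recovered. The libraries held between 12122463 and 18842171 reads on the listed genes. Cfib values are normalized expression values of unsettled unit and unknown depth. Changes are given as log2 fold changes of value + 1, PH-CM over fresh or PH over CO, with the standard error (SE). The added 1 understates the change of low genes, whereas a library at 0 among others with reads can enlarge it, since logs are averaged. For Reck, Adamts14, Mmp17 and Mmp3, with such libraries, the values given below are 4.18, 4.11, 4.22 and −3.81, and DESeq2 on the reads gave 3.03, 3.21, 3.63 and −3.24. Adjusted p-values are from limma with Benjamini-Hochberg adjustment over all genes listed for the experiment, and a gene was called at 0.05. With 3 libraries per group the smallest two-sided p of an exact permutation test is 0.1. In all 7052 ARVM genes and all 2115 Cfib genes the 2 groups did not overlap (100%), in lists that had been selected for this difference, so separation is not repeated gene by gene.

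Most proteases and inhibitors listed for ARVM were higher in PH-CM ARVM than in fresh ARVM, with the elastase Mmp12, Mmp23, Mmp16 and the serpin Serpinf1 showing the largest rises and Prss46, Mmp3, Adam32 and Timp4 the largest falls. All 41 genes passed the test, 28 higher and 13 lower. This count carries little information by itself, since 97.6% of all listed ARVM genes passed, 53.9% higher and 43.7% lower. The size of the changes was larger than among all listed genes. Of the 41, 32 (78.0%) changed by 1 or more on the log2 scale, 23 higher and 9 lower, beside 48.3% of all listed genes, 32.3% higher and 16% lower. The median log2 fold change was 1.81 for the 41 genes and 0.37 for all listed genes, and the median absolute change was 2.43 beside 0.96. Since listing was by p, a gene with more spread between libraries needed a larger change to be listed. The median coefficient of variation was 20.4% in fresh and 14.3% in PH-CM ARVM for the set, beside 9.74% and 10.1% for all listed genes. The part of this selection in the larger changes was not tested. Adjusted p-values of the 41 from limma ran from 1.49e-07 for Mmp2 to 0.0195 for Mmp24.

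**Figure D1:**
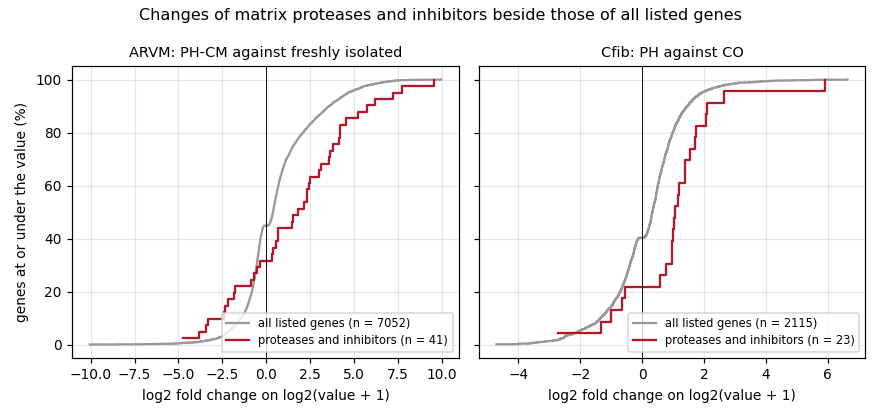
Cumulative share of genes, in percent, at or under each log2 fold change, for the matrix proteases and inhibitors (red) and all listed genes (grey), in ARVM (PH-CM over fresh, left) and Cfib (PH over CO, right). The red median lies at 1.81 in ARVM and 1.07 in Cfib, and the grey median at 0.37 and 0.33.

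The cell type markers moved at the same time. In ARVM, 8 of 9 cardiomyocyte markers were listed and all 8 fell, among them Myh6, the main myosin heavy chain of the adult rat ventricle, from 329064.7 ± 12222 to 6909 ± 623 normalized counts (SD, n = 3). Their summed normalized counts ran from 1265841.7 to 1336008.9 in fresh ARVM and from 87908.9 to 103440.3 in PH-CM ARVM, so myocyte transcripts were present in both groups. All 10 fibroblast markers were listed and rose, with sums of 1533 to 2062 in fresh ARVM and 87478.5 to 130630.6 in PH-CM ARVM and a median log2 fold change of 6.13. Of 12 macrophage markers 11 were listed and rose, with sums of 290 to 354 and 7568 to 11628. All 7 endothelial markers were listed, of which 6 fell and 1 rose, as were all 5 smooth muscle and pericyte markers, of which 3 rose and 2 fell. No fibroblast or macrophage marker was at 0 in all 3 fresh libraries, but Thy1 and the macrophage genes Ptprc and Aif1 had no read in 2 of them. None of the neutrophil markers and none of the pancreatic acinar markers were listed. In bulk RNA, fewer cells of a type and less RNA per cell cannot be told apart, and the part of fibroblast and macrophage transcripts in the protease values below was not tested.

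Among the metalloproteinases, 10 genes were listed for ARVM, of which 8 rose and 2 fell, with a median log2 fold change of 3.91. Mmp12, macrophage elastase, had no read in fresh ARVM con4, con5 and con6 and 808, 544 and 903 normalized counts in PH-CM ARVM ha2, ha209 and ha211. Against a floor of 3 reads over the fresh group, it was at least 635-fold higher, and the fitted log2 fold change was 9.52 (SE 0.32, adjusted p = 1.98e-07 from limma). Mmp16, a membrane-type metalloproteinase, likewise had no read in the fresh libraries and 153, 173 and 127 normalized counts in the PH-CM libraries, at least 128-fold higher (log2 fold change 7.24, SE 0.32, adjusted p = 7.27e-07). These 2 genes were the only proteases or inhibitors of the set without a read in a whole group.

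Mmp23, a metalloproteinase anchored at its amino terminus, rose from 0, 6.43 and 4.13 to 699.5, 528 and 959.7 normalized counts (log2 fold change 7.72, SE 0.71). The log2 fold change was 6.84 when fresh ARVM con4, the library at 0, was left out. Mmp19 rose from 12.7, 5.36 and 10.3 to 354, 339 and 414 normalized counts (log2 fold change 5.21, SE 0.33). Mmp17, another membrane-type enzyme, went from 0, 13.9 and 5.17 to 74.9, 72.5 and 106, and its log2 fold change of 4.22 (SE 0.89) became 3.13 without fresh ARVM con4 and 5.08 without fresh ARVM con5. The fresh values of Mmp23 and Mmp17 thus scattered from no read upward, while the PH-CM libraries lay far above them.

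The gelatinase Mmp2 and its membrane-bound activator Mmp14 had many more reads in both groups. Mmp2 rose from 348, 392 and 345 to 4515, 3767 and 5032 normalized counts (12.3-fold on the group means, log2 fold change 3.61, SE 0.11, adjusted p = 1.49e-07 from limma). Mmp14 rose from 208.9, 256 and 190.1 to 1926, 1612 and 2179 (8.73-fold, log2 fold change 3.12, SE 0.15). In both genes PH-CM ARVM ha209 was the lowest and ha211 the highest of the PH-CM libraries. Mmp11 rose less (log2 fold change 2.50, SE 0.45).

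Mmp3, stromelysin, and Mmp24 went the other way. Mmp3 was at 41.1, 47.1 and 15.5 normalized counts in fresh ARVM and at 0, 11.2 and 0 in PH-CM ARVM, a log2 fold change of −3.81 (SE 0.99, adjusted p = 0.00674 from limma). Leaving out PH-CM ARVM ha209, the only PH-CM library with reads, moved it to −5.01, and leaving out PH-CM ARVM ha2 or ha211 moved it to −3.20. Mmp24 went from 559, 465 and 479 to 359, 415 and 401 normalized counts (log2 fold change −0.35, SE 0.12, adjusted p = 0.0195). Its call was lost without PH-CM ARVM ha2 (adjusted p = 0.0651) and without fresh ARVM con4 (0.0583), and over all alternatives its adjusted p ran from 0.0144 to 0.0651.

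Mmp12 and Mmp3 lie in 1 run of metalloproteinase genes on rat chromosome 8 (Mmp13, Mmp12, Mmp1b, Mmp3, Mmp1, Mmp10, Mmp8, Mmp27, Mmp20 and Mmp7 in RefSeq order on GRCr8), of which these were the 2 listed, and they moved in opposite directions. Promoters of this family are known for AP-1 sites, to which Fos and Jun proteins bind. In the 250 bases before the start of the gene, the AP-1 letters TGANTCA, searched on both strands, were found in 3 of the 28 ARVM proteases and inhibitors with a RefSeq promoter (10.7%), in 6.34% of 33469 rat promoters and in 4.56% of the 5282 promoters of listed genes. These were Mmp12, which rose, Mmp3, which fell, and Adam19, which rose little. The sequences are shown because Mmp12 and Mmp3, of the same run and with opposite changes, hold the same AP-1 letters and both also hold a TATA box. Capitals mark TGAGTCA and, where it occurs, TATAAA, and all 3 genes are on the plus strand of GRCr8, with positions counted from the gene start (−113 to −24 for Mmp12, −97 to −8 for Mmp3 and −195 to −106 for Adam19).
Mmp12, chr8:12866539-12866628: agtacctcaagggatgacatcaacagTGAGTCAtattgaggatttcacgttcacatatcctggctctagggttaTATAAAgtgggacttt
Mmp3, chr8:12925184-12925273: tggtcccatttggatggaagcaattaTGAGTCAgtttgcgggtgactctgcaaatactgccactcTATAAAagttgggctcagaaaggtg
Adam19, chr10:30992566-30992655: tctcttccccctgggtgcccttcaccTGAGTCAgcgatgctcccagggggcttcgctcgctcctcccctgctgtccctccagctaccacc

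The match began at position −87 in Mmp12, −71 in Mmp3 and −169 in Adam19. TATAAA, also searched on both strands, was found in 6 of the 28 (21.4%) beside 12.9% of all promoters, in 3 of 18 that rose and 3 of 10 that fell. The ETS letters AGGAAG were found in 9 of the 28 (32.1%) beside 29.5% of all promoters. Such matches describe letters only.

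The inhibitors split by gene. All 5 inhibitors that fit the rule, the 4 TIMPs and Reck, were listed, of which 3 rose and 2 fell. Timp1, the inducible TIMP, rose from 1081, 869 and 795 to 4250.1, 4142 and 5461 normalized counts (5.05-fold, log2 fold change 2.33, SE 0.14, adjusted p = 3.23e-06 from limma). Timp2, which also takes part in the activation of the Mmp2 precursor by Mmp14, rose from 519, 538 and 572 to 3385, 2159 and 3401 (5.49-fold, log2 fold change 2.43, SE 0.17). As for Mmp2 and Mmp14, PH-CM ARVM ha209 was the lowest of the PH-CM libraries for both.

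Timp3, which binds to the matrix itself, fell from 1410.1, 1532 and 1531 to 975, 922 and 1149 normalized counts (log2 fold change −0.56, SE 0.09, adjusted p = 0.000749). Timp4, the TIMP best known from the heart, fell from 66.5, 64.3 and 40.3 to 5.29, 4.31 and 4.23 (12.4-fold lower, log2 fold change −3.34, SE 0.34). Reck had 42.7, 28.9 and 0 normalized counts in fresh ARVM and 199.6, 183 and 209.9 in PH-CM ARVM. Its log2 fold change of 4.18 (SE 1.27, adjusted p = 0.0135) rested in size on fresh ARVM con6, the library without a read, since without it the value was 2.45. It was 5.18 without fresh ARVM con4, and without PH-CM ARVM ha2 the call was lost (adjusted p = 0.0510, range over the alternatives 0.000177 to 0.0510).

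**Figure D2:**
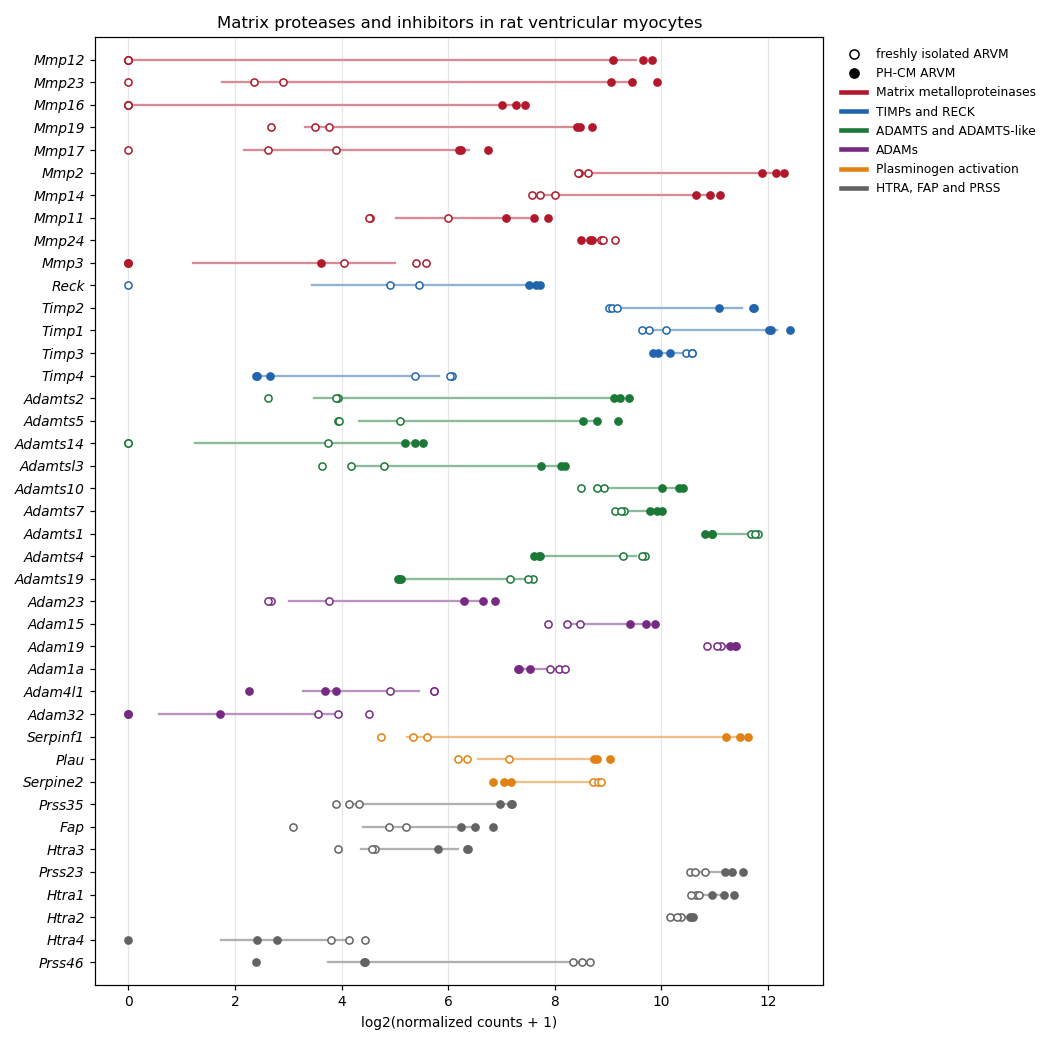
The horizontal axis is log2(normalized counts + 1) for the 41 listed proteases and inhibitors, in rows coloured and ordered by role, with open points for the 3 fresh and filled points for the 3 PH-CM ARVM libraries and a line joining the group means. For Mmp12 and Mmp16 the open points sit at 0, and in every row open and filled points are apart.

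The ADAMTS genes, 9 listed, split into 6 that rose and 3 that fell. The procollagen N-proteinases were among the first: Adamts2 rose from 14.2, 13.9 and 5.17 to 599, 550.4 and 671 normalized counts (54.6-fold, log2 fold change 5.76, SE 0.38, adjusted p = 4.84e-06 from limma). Adamts14, of the same function, went from 0, 0 and 12.4 to 35.5, 40.5 and 44.9 (log2 fold change 4.11, SE 0.96), 5.36 without fresh ARVM con6 and 3.49 without fresh ARVM con4 or con5. Adamtsl3, an ADAMTS-like protein without a protease domain, rose from 26.9, 17.1 and 11.4 to 277, 214 and 290.3 (log2 fold change 3.81, SE 0.34).

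The aggrecanases, which cut aggrecan and versican, moved in both directions. Adamts5 rose from 14.2, 33.2 and 14.5 to 445, 368 and 581 normalized counts (22.5-fold, log2 fold change 4.51, SE 0.37). Adamts4 fell from 823, 793 and 618 to 210.2, 193 and 207 (3.66-fold lower, log2 fold change −1.85, SE 0.14). Adamts1 fell from 3588, 3288 and 3468 to 1804, 1974 and 1977 (1.80-fold lower, log2 fold change −0.85, SE 0.06, adjusted p = 9.37e-06). Adamts1 and Adamts5 are neighbours on rat chromosome 11 and changed in opposite directions.

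Adamts10, which is linked to fibrillin microfibrils, rose from 359, 484 and 442 to 1288, 1033 and 1352 normalized counts (log2 fold change 1.51, SE 0.14). Adamts19 fell from 191, 142 and 179 to 32.5, 33.6 and 32.2 (log2 fold change −2.34, SE 0.23), and Adamts7 rose by the least of the 9 (log2 fold change 0.68, SE 0.09).

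The ADAM genes, 6 listed, were evenly split. Adam23, which has no active protease site and acts in adhesion, rose from 12.7, 5.36 and 5.17 to 77.1, 100.1 and 116 normalized counts (log2 fold change 3.58, SE 0.40). The sheddase Adam15 rose from 299, 352 and 232 to 837, 677 and 938 (log2 fold change 1.48, SE 0.18), and Adam19, known for shedding neuregulin and for a role in heart valve development, from 1848, 2224 and 2109 to 2505, 2652 and 2712 (log2 fold change 0.35, SE 0.08, adjusted p = 0.00337). The 3 that fell belong to ADAMs best known from the testis. Adam1a fell from 271, 239 and 291 to 185, 159 and 157 (log2 fold change −0.67, SE 0.16), and Adam4l1 from 52.2, 52.5 and 28.9 to 3.78, 13.8 and 11.8 (−2.18, SE 0.51). Adam32 had 14.2, 10.7 and 21.7 normalized counts in fresh ARVM and 2.27, 0 and 0 in PH-CM ARVM, or 40 reads against 3, a ratio of 19.3 with a 95% counting interval of 6.14 to 97.4. Reads of the low Adam genes could be shared with near copies. This was not tested, so these values are to be read with caution.

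Of the plasminogen activation genes, Plau and Serpinf1 rose and Serpine2 fell. Serpinf1, pigment epithelium-derived factor, is a secreted serpin that inhibits no protease and is known to bind collagen, and it rose from 39.6, 25.7 and 47.5 to 2848, 2357 and 3158 normalized counts (74.2-fold, log2 fold change 6.21, SE 0.23, adjusted p = 3.13e-07 from limma). Plau, the urokinase activator, rose from 80.7, 71.8 and 140.5 to 424, 443 and 526 (4.75-fold, log2 fold change 2.29, SE 0.26). Serpine2, protease nexin 1, which inhibits thrombin and urokinase, fell from 421, 448 and 465 to 144, 131 and 113 (3.43-fold lower, log2 fold change −1.78, SE 0.15). Plat and Plaur were not listed for ARVM.

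Of the 8 serine proteases, 6 rose and 2 fell. Prss35, grouped here by name, rose from 19.0, 13.9 and 16.5 to 124, 144 and 146 normalized counts (8.38-fold, log2 fold change 3.0, SE 0.26). The fibroblast activation protein Fap rose from 28.5, 7.5 and 36.2 to 90, 114 and 74.5 (log2 fold change 2.14, SE 0.55). The value of Fap was 1.48 without fresh ARVM con5. Htra3 rose from 14.2, 23.6 and 22.7 to 55.2, 80.2 and 82.1 (log2 fold change 1.81, SE 0.33). The other 3 rose by less. Htra1, a secreted protease that cuts matrix proteins, rose from 1611, 1659 and 1505 to 2319, 1974 and 2625 (1.45-fold, log2 fold change 0.53, SE 0.10), Prss23 had a log2 fold change of 0.68 (SE 0.11), and Htra2, a mitochondrial protease, one of 0.30 (SE 0.07).

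Prss46, a member of the testis serine protease cluster on rat chromosome 8, fell from 402, 321 and 362 to 20.4, 20.7 and 4.23 normalized counts (23.9-fold lower, log2 fold change −4.75, SE 0.54, adjusted p = 9.63e-05 from limma). The log2 fold change was −4.07 without PH-CM ARVM ha211. Htra4 fell from 20.6, 12.9 and 16.5 to 0, 4.31 and 5.92 (log2 fold change −2.38, SE 0.72, adjusted p = 0.0131), a value that was −1.52 without PH-CM ARVM ha2 and was not called at a pseudocount of 0.1 (adjusted p = 0.0550, range over the alternatives 0.00211 to 0.0550).

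Counted in reads, the 41 genes together took 0.0937%, 0.0946% and 0.0945% of the reads on listed genes in fresh ARVM con4, con5 and con6 and 0.261%, 0.241% and 0.294% in PH-CM ARVM ha2, ha209 and ha211. The 95% Wilson intervals, which cover counting error only, spanned 0.0920% to 0.0960% over the fresh libraries and 0.239% to 0.296% over the PH-CM libraries. The 2 groups were thus far apart relative to counting error and to the spread between libraries. All 41 genes had, however, been listed for a difference between these groups, so this distance is not a test. The metalloproteinases took 0.00578% to 0.00658% in fresh and 0.0557% to 0.0726% in PH-CM libraries, and the TIMPs and Reck 0.0159% to 0.0163% and 0.0539% to 0.0717%. The make-up also changed. Adamts1 took the most reads of the set in each fresh library, 18.3% to 20.0%, whereas Mmp2 did so in PH-CM ARVM ha2 (12.2%) and Timp1 in PH-CM ARVM ha209 and ha211 (12.5% and 13.0%). These shares are not scaled for transcript length. Their denominator holds only reads on genes listed for a difference, so the change in share need not equal the change in normalized counts.

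**Figure D3:**
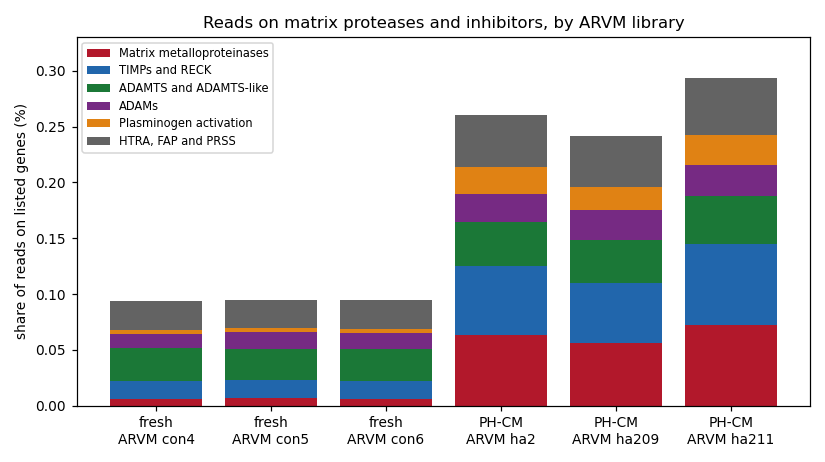
Share of the reads on listed genes, in percent, taken by each role of proteases and inhibitors in each of the 6 ARVM libraries, as stacked bars. The bars reach 0.0937% to 0.0946% in fresh and 0.241% to 0.294% in PH-CM ARVM.

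In rat GRCr8, 135 annotated protein-coding genes fit the symbol rule, without an opposite-strand gene and a pseudogene by symbol, of which 41 were listed and 94 were not. Listed were 10 of 23 metalloproteinase genes, 5 of 5 inhibitors, 9 of 24 ADAMTS genes, 6 of 30 ADAM genes, 3 of 7 plasminogen activation genes and 8 of 46 serine protease genes. Listing required the authors' selection by p and by a value above 1, so a gene with little expression could not be listed. The share of all annotated rat genes that was listed was not computed, so these counts are no result about a role.

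Between PH and CO Cfib, the gelatinase MMP9, the elastase MMP12, the trypsinogen gene PRSS2 and 4 ADAMTS genes were higher in PH Cfib, whereas the serpin SERPINE2 and the activator PLAU were lower. All 23 listed genes passed the test, 18 higher and 5 lower, beside 97.5% of all listed Cfib genes, 58.2% higher and 39.4% lower. Of the 23, 16 (69.6%) changed by 1 or more on the log2 scale, 13 higher and 3 lower, beside 34% of all listed genes, 19.7% higher and 14.3% lower. The median log2 fold change was 1.07 beside 0.33 for all listed genes, and adjusted p-values of the 23 from limma ran from 6.60e-07 for PRSS2 to 0.0115 for MMP16. Rescaling the libraries by median of ratios moved the median of all Cfib genes by −0.27, gave 840 genes higher and 869 lower, and put the median of the 23 at 0.81 with the 18 and 5 calls as before. The PH Cfib libraries differed little from each other, with a median coefficient of variation of 5.76% over the 23 genes against 28.3% in CO Cfib. Over all listed genes it was 5.01% against 13.7%. As in ARVM, the part of selection by p in the larger changes of the 23 was not tested. When the PH libraries were averaged into 1 sample, some of the genes higher in PH Cfib lost their call. The size of the change hardly moved, as for MMP16 with a log2 fold change of 0.98 in both fits. The share of all listed genes called in that fit is not given here, so calls lost in it are no result about these genes. CO Cfib 3 was the lowest CO library for 12 of the 23.

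In Cfib, 3 of 10 fibroblast markers were listed and rose. Of 12 macrophage markers 4 were listed, 3 higher and 1 lower. CD68 went from 2.24 to 3.61, TYROBP from 0.207 to 1.05 and FCGR1A from 0.779 to 1.29 on the group means, CD14 from 7.12 to 2.01, and their summed values were 9.01 to 11.7 in CO Cfib and 7.07 to 8.46 in PH Cfib. Of 5 smooth muscle and pericyte markers 4 were listed, of which RGS5 rose from 0.326 to 3.54, CSPG4 from 3.02 to 8.65 and MYH11 from 1.92 to 4.60, and CNN1 fell from 18.0 to 10.8, with sums of 21.0 to 25.5 in CO Cfib and 27.3 to 27.8 in PH Cfib. No cardiomyocyte, endothelial or neutrophil markers were listed. The only listed pancreatic acinar marker, CELA3B, fell from 2.31 ± 0.700 to 0.509 ± 0.137 (SD, n = 3). The part of other cell types in the Cfib values was not tested.

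The Cfib metalloproteinases, 5 listed, comprised 4 that rose and 1 that fell. In the order CO Cfib 1, 2 and 3, MMP9, gelatinase B, had values of 0.413, 0.993 and 0.714, and in PH Cfib 1, 2 and 3 of 8.69, 11.5 and 8.85 (13.7-fold, log2 fold change 2.65, SE 0.16, adjusted p = 2.21e-05 from limma). MMP12 rose from 0.221, 1.16 and 0.318 to 4.87, 6.72 and 5.19 (9.88-fold, log2 fold change 2.11, SE 0.23). Both are known from macrophages, of whose 4 listed markers CD68, TYROBP and FCGR1A were higher and CD14 lower in PH Cfib. MMP23B, the bovine counterpart of Mmp23 by name, rose from 33.6, 28.5 and 53.1 to 103, 98.2 and 92.6 (log2 fold change 1.37, SE 0.21), and MMP16 from 6.04, 6.31 and 2.62 to 11.1, 10.1 and 9.65 (0.98, SE 0.27, not called with the PH libraries averaged, adjusted p = 0.133, range over the alternatives 0.000243 to 0.133). MMP19 fell from 20.1, 22.8 and 16.9 to 9.21, 9.30 and 9.63 (2.12-fold lower, log2 fold change −1.0, SE 0.11).

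The inhibitors TIMP3 and RECK were both higher in PH Cfib. TIMP3 rose from 104, 138 and 77.5 to 251, 228 and 228 (2.22-fold, log2 fold change 1.18, SE 0.20), and RECK from 10.1, 7.46 and 3.83 to 19.8, 18.6 and 18.8 (2.67-fold, log2 fold change 1.38, SE 0.29). With the PH libraries averaged into 1 sample neither was called (adjusted p = 0.0525 and 0.0826), and over the alternatives their adjusted p started at 0.000218 and 0.000142. TIMP1, TIMP2 and TIMP4 were not listed.

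All 4 listed ADAMTS genes and both listed ADAM genes rose. ADAMTS12 rose from 1.37, 2.37 and 0.104 to 7.38, 8.83 and 7.02 (6.04-fold, log2 fold change 2.08, SE 0.39) and ADAMTS1 from 6.87, 14.0 and 5.28 to 32.3, 28.1 and 26.1 (3.31-fold, log2 fold change 1.72, SE 0.31). ADAMTS10 went from 17.1, 14.5 and 7.86 to 32.7, 29.3 and 27.4 (1.18, SE 0.26) and ADAMTS15, a proteoglycan-cutting member, from 0.405, 0.788 and 0.185 to 1.71, 1.86 and 1.81 (0.96, SE 0.15). In all 4 CO Cfib 3 was the lowest library. ADAM19 rose from 21.9, 19.8 and 10.1 to 34.6, 35.2 and 34.2 (log2 fold change 1.03, SE 0.26) and ADAM15 from 52.2, 38.3 and 40.5 to 66.5, 64.7 and 63.1 (0.57, SE 0.12). With the PH libraries averaged, ADAMTS15 alone of these 6 was called (adjusted p = 0.0445), and the adjusted p of the others ran from 0.0606 to 0.117. Over all alternatives the lowest adjusted p of these 6 lay between 4.26e-05 for ADAM19 and 0.000461 for ADAMTS15.

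Plasminogen activation genes moved in both directions. SERPINE2 fell from 728, 1284 and 1216 to 146, 171 and 162 (6.74-fold lower, log2 fold change −2.70, SE 0.22, adjusted p = 7.16e-05 from limma). The activators were opposite: PLAU, urokinase, fell from 59.0, 50.6 and 54.3 to 32.9, 41.5 and 38.0 (1.46-fold lower, log2 fold change −0.54, SE 0.10), and PLAT, the tissue activator, rose from 111, 89.3 and 76.7 to 180.0, 191 and 180.4 (1.99-fold, log2 fold change 1.0, SE 0.13). SERPINF1 rose from 272, 177 and 223 to 637, 649.9 and 641 (2.87-fold, log2 fold change 1.54, SE 0.15).

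The serine proteases in Cfib were led by PRSS2, an anionic trypsinogen normally made by the pancreas. It was at 0.0571, 0 and 0.0760 in CO Cfib and at 54.9, 64.1 and 65.7 in PH Cfib (log2 fold change 5.90, SE 0.09, adjusted p = 6.60e-07 from limma). Because CO Cfib was near 0, the size depends on the pseudocount and was 8.78 at 0.1 and 2.83 at 10. Trypsinogens are a family of near copies, so reads could have been assigned to PRSS2 from another member, which was not tested. The acinar marker CELA3B was lower in the same PH libraries. PRSS12, neurotrypsin, rose from 0.642, 0.435 and 0.560 to 3.82, 4.79 and 3.86 (7.62-fold, log2 fold change 1.74, SE 0.11). FAP rose from 31.8, 23.2 and 27.4 to 58.4, 56.1 and 60.5 (2.12-fold, log2 fold change 1.07, SE 0.11) and HTRA1 from 345, 338 and 484 to 667, 666 and 654 (1.70-fold, log2 fold change 0.79, SE 0.15). PRSS35 fell from 15.7, 15.6 and 14.2 to 5.33, 5.77 and 5.16 (2.80-fold lower, log2 fold change −1.33, SE 0.08). HTRA1 was not called with the PH libraries averaged (adjusted p = 0.0731, range over the alternatives 1.30e-05 to 0.0731).

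**Figure D4:**
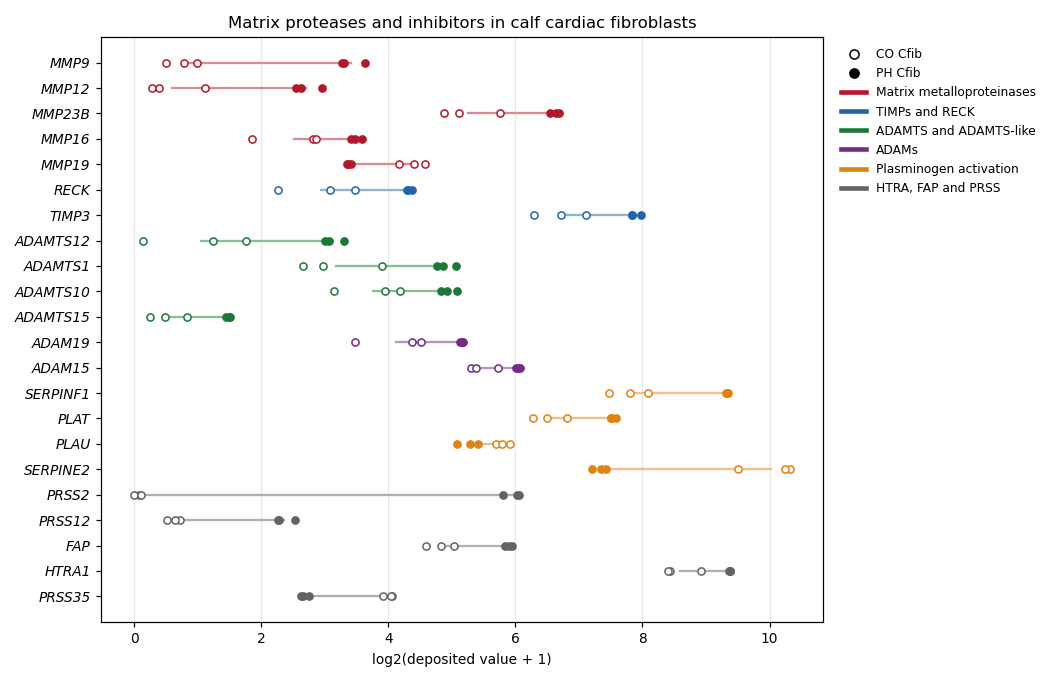
The horizontal axis is log2(deposited value + 1) for the listed proteases and inhibitors described in the text, in rows coloured and ordered by role, with open points for the 3 CO and filled points for the 3 PH Cfib libraries and a line joining the group means. PRSS2 goes from near 0 to values of 54.9 to 65.7, and SERPINE2 from 728 to 1284 in CO Cfib to 146 to 171 in PH Cfib.

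Set side by side, 16 genes were listed in both experiments, in different species and with no shared libraries. Among them 10 rose in both, namely Mmp12, Mmp16, Mmp23, Reck, Serpinf1, Fap, Adamts10, Adam15, Adam19 and Htra1, and Serpine2 fell in both. Another 3, Mmp19, Plau and Prss35, rose in ARVM and fell in Cfib, and Timp3 and Adamts1 fell in ARVM and rose in Cfib. The share with the same direction among all 1178 symbols listed in both was not computed, so these counts only describe the genes named. Of all listed genes, 55.1% in ARVM and 59.7% in Cfib had a positive log2 fold change. A further 25 genes were listed for ARVM only and 7 for Cfib only, among them MMP9, ADAMTS12, ADAMTS15, PLAT, PRSS2 and PRSS12. Mmp12 had the largest log2 fold change of the 16 in ARVM (9.52) and that of the 15 others ran down to −1.78 for Serpine2. In Cfib the 16 ran from 2.11 for MMP12 to −2.70 for SERPINE2.

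**Figure D5:**
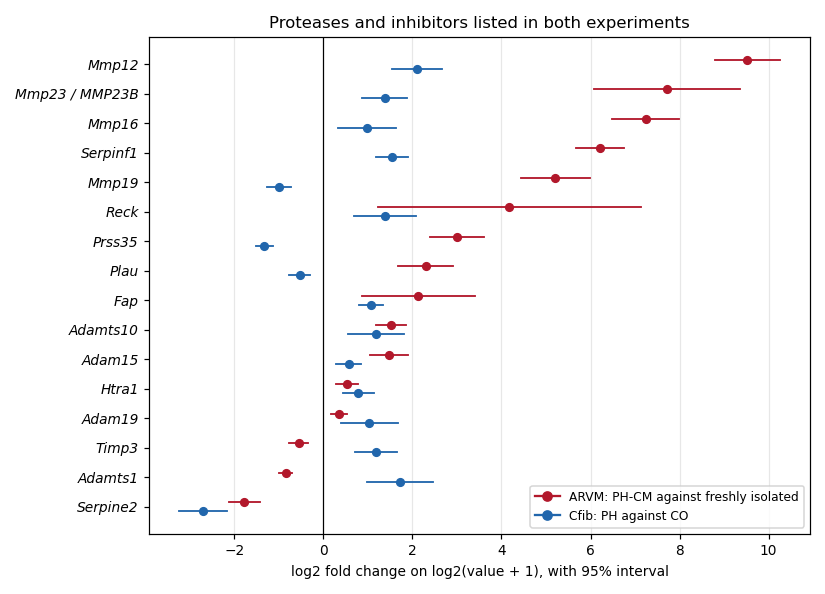
Log2 fold changes (horizontal axis) of the 16 genes listed in both experiments, 1 row per gene, in ARVM (red, PH-CM over fresh) and Cfib (blue, PH over CO), with lines for the 95% interval. Mmp12 lies at 9.52 and 2.11, Serpine2 at −1.78 and −2.70, and Mmp19 at 5.21 and −1.0.

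Other genes of pericellular proteolysis, 54 in a list of activators, receptors, inhibitors, other proteases and substrates, were read in the same way. Like the symbol rule, the list was chosen with earlier results of these data known. In ARVM 29 were listed, of which 25 rose and 4 fell (Furin, Vldlr, Tfpi2 and Vtn). Of all listed ARVM genes, 53.9% were called higher and 43.7% lower. The median log2 fold change was 2.26 beside 0.37 for all listed genes. Pcolce, which enhances procollagen cleavage by Bmp1, rose from 57.0, 65.3 and 77.5 to 7230.4, 5169 and 8660.3 normalized counts (log2 fold change 6.68, SE 0.20), and Bmp1 itself had a log2 fold change of 1.51 (SE 0.13). The collagen crosslinker Lox rose from 0, 0 and 8.26 to 423, 336 and 528 (7.65, SE 0.83), and A2m, a broad protease trap, had no read in fresh ARVM and 116, 171 and 158 normalized counts in PH-CM ARVM. The aggrecanase substrate Vcan had a log2 fold change of 4.48 (SE 0.20), and Lrp1, the endocytic receptor for protease and inhibitor complexes, one of 3.94 (SE 0.20). Furin, which activates metalloproteinase and ADAM precursors, fell from 2937, 3819 and 3479 to 2506, 2393 and 2703 (−0.42, SE 0.10).

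In Cfib 13 genes of this list were listed, of which 8 rose and 5 fell (ECM1, F3, CTSK, CTSB and TSPAN15). This split is close to that of all listed Cfib genes, 58.2% called higher and 39.4% lower, so it is no result about the list. The median log2 fold change was 0.84 beside 0.33 for all listed genes. PCOLCE rose from 230.2, 179.7 and 178 to 541, 532 and 509.6 (log2 fold change 1.43, SE 0.11), LOX from 169, 138 and 40.4 to 608, 538 and 504 (2.47, SE 0.51) and A2M from 1.17, 0.859 and 0.571 to 3.35, 3.44 and 3.09 (1.21, SE 0.13). ECM1, which is known to bind MMP9, fell from 923, 720.2 and 865 to 158, 176 and 197 (−2.23, SE 0.13), and the cathepsin CTSK, a collagen-cutting cysteine protease, from 1866, 2106 and 2039 to 889, 967 and 941 (−1.10, SE 0.11). CTSK and F3 thus fell in Cfib, while Ctsk and F3 rose in ARVM (log2 fold changes 2.58, SE 0.28, and 3.24, SE 0.18). TSPAN15, a tetraspanin that directs ADAM10, went from 7.57, 7.82 and 9.57 to 0.585, 0.841 and 0.595 (−2.47, SE 0.12).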

How the data were processed

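RNA was measured in 12 libraries, 3 per group. The authors depleted ribosomal RNA, sequenced on a HiSeq4000, aligned with HISAT2 and StringTie to bosTau8 or rn6 and normalized with DESeq2 (versions not given in the sources used here). They deposited only genes selected by p and by a value above 1. In the deposited ARVM table the signal of a library is its reads per gene over 1 size factor, and 100% of values were whole multiples within 0.01. The deposited Cfib signal showed no common step (1.72% to 3.68% whole multiples), so its unit was not settled and its depth is unknown.

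Libraries were assigned to groups by their sample titles, and the groups were named as in the paper. Differences were tested with limma 3.58.1 under R 4.3.3 (moderated test, eBayes with trend) on log2(value + 1) over all listed genes, with Benjamini-Hochberg adjustment. Alternatives were pseudocounts of 0.1 and 10, a minimum mean (50 for ARVM, 5 for Cfib), eBayes without trend, median of ratios, leaving out each library, a replicate block (Cfib), averaged PH Cfib libraries, a minimum log2 fold change of 1, and edgeR 4.0.16 and DESeq2 1.42.0 on the recovered ARVM reads. Scripts were tested on simulated data. Tables were handled with Python 3.11.15, numpy 2.4.6, scipy 1.17.1 and pandas 2.3.3.

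Every gene of the symbol rule was accounted for by role. Values per library are given for up to 5 genes per role, for inhibitors, plasminogen activation genes, genes at 0 and genes listed in both experiments. The genes and lists were chosen with earlier results of these data known. RefSeq promoters are on GRCr8, while the files use rn6. No bovine sequence was used here. A gene of the rule is counted but its values are not reported here.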

Additional observations from a re-analysis of the deposited data

How the results depend on the processing

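No protease or inhibitor changed direction under any alternative run, but most of these runs could not have reversed one. The groups did not overlap in any listed gene, so only median of ratios, edgeR and DESeq2 could change a direction. Over the single-gene log2 fold changes, without the fold minimum, 521 values for ARVM and 286 for Cfib kept their call, and 4 and 9 lost it. In ARVM these were Htra4 at a pseudocount of 0.1, Mmp24 in 2 and Reck in 1 of the fits that left out a library. In Cfib they were ADAM15, ADAM19, ADAMTS1, ADAMTS10, ADAMTS12, HTRA1, MMP16, RECK and TIMP3, all with the PH libraries averaged into 1 sample. Genes of the wider list also lost calls in that fit. The share of all listed genes called in it is not given here, so these losses are no result about the set. With a minimum mean, 33 of the 41 ARVM genes were tested and 8 were lower, and 3 of 10 genes of the wider list in Cfib were lower, because fewer genes were tested. When a change of 1 or more on the log2 scale was also required, 3 proteases and inhibitors were lower in Cfib, and 5 genes of the wider list were higher and 3 lower. A replicate block in Cfib gave 18 higher and 5 lower and changed no call. Libraries of equal number had correlations of their deviations of 0.258, 0.0312 and 0.259 over the 2115 Cfib genes. Whether libraries of equal number share more than the number was not tested. For ARVM, a block could not be fitted because the groups share no replicate numbers. Depth limits every ARVM gene with few reads in a group, and is unknown for Cfib. Among these are Adam32, Mmp3, Htra4 and Timp4 (17 reads over the PH-CM group) and, with few fresh reads, Mmp23 (10), Adamts14 (12), Mmp17 (18) and Adam23 (18).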
